A study of Homo sapiens with 8 samples.

Results

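The 40S, or small, subunit of the human ribosome is built from a single ribosomal RNA and a set of small proteins, each made from its own gene. The 28 genes described here encode such proteins, and were taken by symbol from tables of 19124 genes; all 28 were found in each of the 8 libraries. The libraries are RNA sequencing of HCT116 and HT29, established human colorectal cancer lines grown in RPMI medium, taken 48 h after lipid transfection with 15 nM of an siRNA. In each line 1 sample received a negative control siRNA (NC) and 1 each an siRNA against RPL9, RPL17 or RPL27, all of them proteins of the 60S, or large, subunit, so no small subunit gene was targeted. There is 1 library per line and siRNA, and in such bulk RNA fewer cells of a kind and less RNA per cell cannot be told apart. The tests of the siRNAs therefore take the 2 lines as replicates, the tests between lines take the 3 RPL siRNAs as replicates, and a value from a single line has no replicate error. The labels do not say whether the cultures were handled on separate days.

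Small subunit proteins are made in the cytoplasm, carried to the nucleolus and assembled on precursor ribosomal RNA with the help of assembly factors, in a pathway that runs apart from that of the large subunit. Their messages are known as 5' TOP messages: they typically start with a C followed by a run of pyrimidines, through which growth signals acting by mTOR and LARP1 set their translation and stability as a group. Cells that lack 1 ribosomal protein commonly lose the subunit it belongs to, while unassembled proteins of either subunit are degraded. Whether the messages for the small subunit change when a large subunit protein is lost is the question these libraries address for the genes below.

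Values are RPKM, reads per kilobase of gene scaled to the depth of the library. The sources used here do not state how reads were assigned to genes, so the levels of different genes are not compared. Ribosomal protein genes have many processed pseudogenes that can share their reads, so absolute levels are uncertain. The targeted genes matched the labels: each stood at 28.97% to 34.1% of the mean of the other RPL siRNA libraries of its line under its own siRNA. The siRNA to RPL17 came with less RPL27 too: it read 4723 RPKM in HCT116, where the RPL9 siRNA library read 9280.0, and 4754 in HT29, where that library read 10529.9, so the mean used for RPL27 is lowered. Of 7 epithelial markers KRT8 read at least 9154 RPKM and EPCAM at least 2248 in every library, while CLDN3 read at most 12.2. The fibroblast markers DCN, LUM and COL1A2 read at most 1.32 RPKM, although COL1A1 read 252 to 438, and the leukocyte marker PTPRC read at most 1.87. The summed epithelial list read 19420.0 to 46870.0 RPKM and the fibroblast list 253.6 to 439.4. The HT29 NC library stands apart from the other 7. Relative to it, the mean of the HT29 RPL siRNA libraries had a median log2 difference of -0.69 over 1014 genes with transcripts of 500 to 1000 bases and of 1.47 over 780 genes with transcripts over 8000 bases, against 0.088 and -0.0036 in HCT116. Small subunit messages are short, with a median matched length of 780.5 bases against 2498 for all genes, so results are given both with and without that library.

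The starts of the messages show what the genes share in sequence. The windows below run from 15 bases before to 15 bases after a RefSeq transcript start (GRCh38.p14, coding strand, 5' to 3'). Capitals mark a C followed by at least 5 further C or T letters that lies over the start or within 5 bases of it. They were chosen as genes that the results below turn on.
RPS12: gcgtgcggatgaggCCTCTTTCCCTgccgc
RPS28: tccccgaagcacgtgaCTCCTCTCCgccag
RPS19: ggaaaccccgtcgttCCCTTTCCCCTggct
RPS6: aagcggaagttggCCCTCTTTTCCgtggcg
RPS21: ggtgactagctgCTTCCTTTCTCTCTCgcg
FAU: cgccctcgCTTCTTCCTCTTTCTCgactcc
RPS26: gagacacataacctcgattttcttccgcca
RPS4X: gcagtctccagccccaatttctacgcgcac
The windows lie at chr6:132814554-132814583 (+) for RPS12, chr19:8321481-8321510 (+) for RPS28, chr19:41860240-41860269 (+) for RPS19, the first of 2 listed starts, chr9:19380222-19380251 (-) for RPS6, chr20:62387088-62387117 (+) for RPS21, chr11:65122120-65122149 (-) for FAU, chr12:56041903-56041932 (+) for RPS26 and chrX:72277234-72277263 (-) for RPS4X. Promoters were matched for 25 of the 28 genes (not RPS2, RPS15A and RPS20), and 21 of them held such a run at a listed start, read on the coding strand only. The run was present in 21.6% of all 27305 genes with a promoter, in 24% of the 13960 of them that the tables list, in 32% of 319 genes outside the ribosomal protein lists whose mean RPKM was at or above the lowest of the 28, in 33 of 38 large subunit genes with a promoter and in 6 of 40 genes of 40S assembly factors. It was not matched at the listed starts of RPS4X, RPS15, RPS26 and RPS29. This is a match of letters and not a measured start.

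In HCT116, small subunit messages stood slightly above NC under the RPL siRNAs. The mean of the 3 RPL siRNA libraries was above NC for 25 of 28 genes, with a median log2 difference of 0.24 (range -0.22 to 0.58), against a median of 0.0063 over 14281 tested genes. Short transcripts as a whole stood slightly above NC too, with a median of 0.16 over 86 genes under 500 bases and 0.088 over 1014 genes of 500 to 1000 bases. The NC library lay below all 3 RPL siRNA libraries for 20 of the 28 genes and above all 3 for 1, RPS9; over all tested genes these shares were 33.0% and 32.4%. The spread between control cultures of HCT116 is not known. In HT29 the picture was the opposite. NC lay above all 3 RPL siRNA libraries for 28 of 28 genes (32.7% of all tested genes), with a median log2 difference of -1.002 (range -1.60 to -0.42) against 0.19 over all tested genes.

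**Figure D1:**
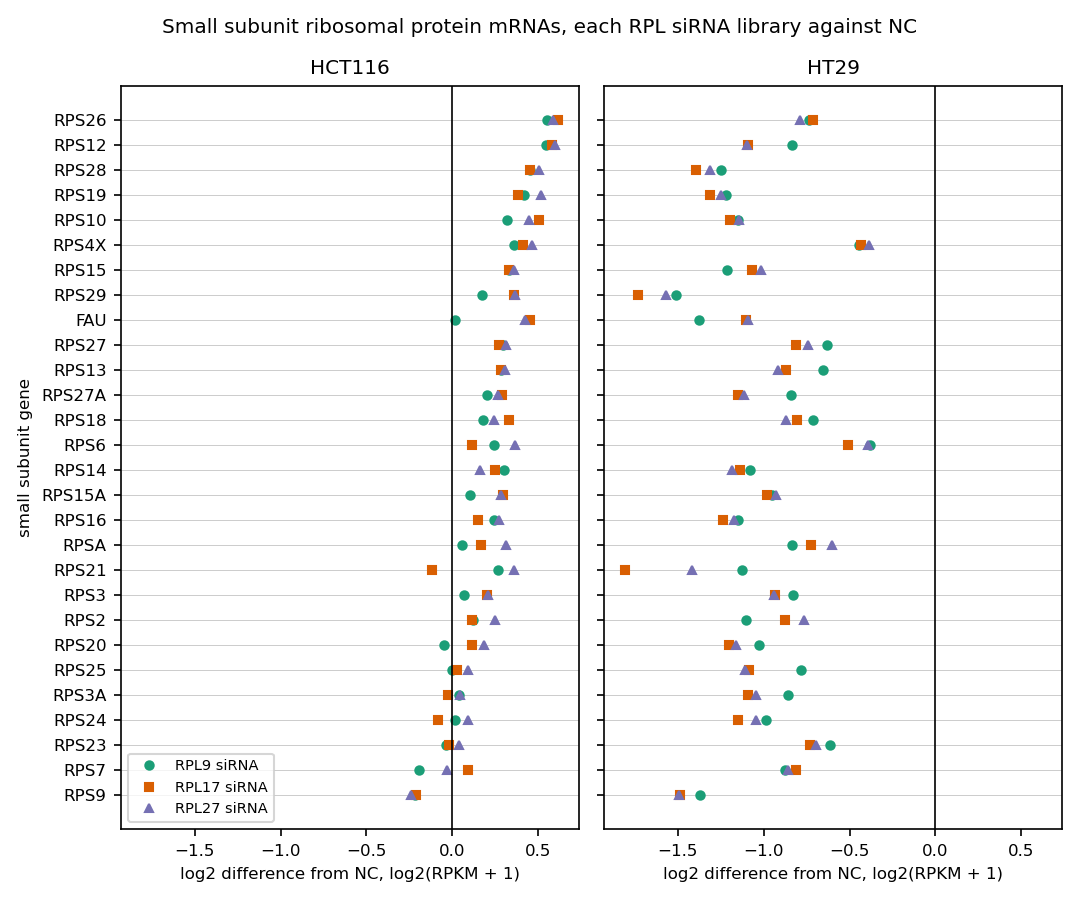
Each row is a small subunit gene, ordered by its mean difference in HCT116, and each point is 1 RPL siRNA library minus the NC library of the same line on the log2(RPKM + 1) scale (circles RPL9, squares RPL17, triangles RPL27 siRNA). In HCT116 the means run from -0.22 (RPS9) to 0.58 (RPS26), while in HT29 all points lie below 0.

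The genes are taken in the order of their place in the subunit, beginning with the head, which holds the messenger RNA and the transfer RNA during decoding. RPS12, a protein of the beak of the head, read 10470.0 RPKM in HCT116 NC and 15287, 15660.5 and 15841 with siRNA to RPL9, RPL17 and RPL27, and 26997 in HT29 NC against 15155, 12679 and 12641. RPS10, its neighbour in the beak and a substrate of the ubiquitin ligase ZNF598 on stalled ribosomes, read 5632 RPKM in HCT116 NC and 7017, 7984 and 7664 with siRNA to RPL9, RPL17 and RPL27, and 16168 in HT29 NC against 7287, 7055 and 7309.9. RPS27A, whose product is released from a fusion with ubiquitin, read 11441 RPKM in HCT116 NC and 13156, 13989 and 13727 with siRNA to RPL9, RPL17 and RPL27, and 28916 in HT29 NC against 16156, 13049.6 and 13342. For all 3 beak genes the HCT116 NC library was the lowest of its line and the HT29 NC library the highest of all 8.

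RPS19, a protein needed for maturation of the precursor of 18S RNA and a gene mutated in Diamond-Blackfan anaemia, read 7255 RPKM in HCT116 NC and 9690.3, 9461 and 10352 with siRNA to RPL9, RPL17 and RPL27, and 23085 in HT29 NC against 9928, 9306 and 9730.0. RPS28, which lies near the exit of the messenger RNA channel, read 3643 RPKM in HCT116 NC and 4981, 4973 and 5171 with siRNA to RPL9, RPL17 and RPL27, and 10028 in HT29 NC against 4229, 3821 and 4043. RPS29, a small zinc-binding protein, read 1875 RPKM in HCT116 NC and 2114, 2408 and 2409 with siRNA to RPL9, RPL17 and RPL27, and 5715 in HT29 NC against 2003, 1719 and 1925. RPS28 and RPS29 were among the 3 genes with the widest gap between the lines, as given below, and HT29 NC stood far above the 3 RPL siRNA libraries of its line in both.

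RPS15, whose tail reaches the decoding site, read 1813 RPKM in HCT116 NC and 2279, 2281 and 2328 with siRNA to RPL9, RPL17 and RPL27, and 3978 in HT29 NC against 1717, 1898 and 1966. RPS16, whose tail contacts the initiator transfer RNA, read 7257 RPKM in HCT116 NC and 8581, 8057 and 8754 with siRNA to RPL9, RPL17 and RPL27, and 19129 in HT29 NC against 8625, 8108 and 8487. RPS18, which takes part in a bridge to the large subunit, read 26447 RPKM in HCT116 NC and 29893, 33221 and 31328 with siRNA to RPL9, RPL17 and RPL27, and 51909.6 in HT29 NC against 31634, 29722 and 28409. These 3 genes again had NC lowest in HCT116 and highest in HT29.

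RPS3, at the entry of the messenger RNA channel, read 11863 RPKM in HCT116 NC and 12453, 13666 and 13718 with siRNA to RPL9, RPL17 and RPL27, and 25032 in HT29 NC against 14099.7, 13082 and 13044. RPS20, another substrate of ZNF598 at that entry, read 7678 RPKM in HCT116 NC and 7437, 8296 and 8709.8 with siRNA to RPL9, RPL17 and RPL27, and 16496 in HT29 NC against 8098, 7169 and 7387. RPS25, needed for initiation at several viral internal entry sites, read 8193 RPKM in HCT116 NC and 8173, 8351 and 8739.6 with siRNA to RPL9, RPL17 and RPL27, and 17308 in HT29 NC against 10051, 8172 and 8015. RPS20 and RPS25 were the only 2 of the 12 head genes for which the HCT116 NC library lay within the range of the RPL siRNA libraries. Over the 12 head genes the median of the RPL siRNA mean minus NC, averaged over the lines, was -0.40, against -0.37 over the 16 genes of the body and platform.

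Among genes of the body and platform, RPS26, inserted by the escort protein TSR2 near the messenger RNA exit, read 1758 RPKM in HCT116 NC and 2581, 2694 and 2636 with siRNA to RPL9, RPL17 and RPL27, and 3734 in HT29 NC against 2242, 2275 and 2162. RPS4X, encoded on the X chromosome, read 9615 RPKM in HCT116 NC and 12336, 12759 and 13250.0 with siRNA to RPL9, RPL17 and RPL27, and 17931 in HT29 NC against 13149.6, 13262 and 13720.3. RPS6, the protein that S6 kinases phosphorylate, read 14179 RPKM in HCT116 NC and 16779, 15328 and 18221 with siRNA to RPL9, RPL17 and RPL27, and 23479 in HT29 NC against 17998, 16482 and 17881. RPS26 had the largest difference from NC of the 28 in HCT116, and RPS4X and RPS6 the smallest in HT29.

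RPS9, which lies at the entry of the messenger RNA channel and bears on decoding accuracy, read 5200.1 RPKM in HCT116 NC and 4479, 4496 and 4397 with siRNA to RPL9, RPL17 and RPL27, and 11406 in HT29 NC against 4404, 4064 and 4048. It was below NC in all 6 RPL siRNA libraries, and no other of the 28 genes was. RPS7, a protein that can bind MDM2 outside the ribosome, read 15297 RPKM in HCT116 NC and 13376, 16314 and 14973 with siRNA to RPL9, RPL17 and RPL27, and 30263 in HT29 NC against 16523, 17236 and 16709.6. In HCT116 the NC value of RPS7 lay inside the range of the RPL siRNA libraries.

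RPSA, a platform protein also described as a laminin receptor, read 13406 RPKM in HCT116 NC and 13944, 15069 and 16627 with siRNA to RPL9, RPL17 and RPL27, and 20464 in HT29 NC against 11454, 12384 and 13463. RPS2, a protein methylated by PRMT3, read 19911 RPKM in HCT116 NC and 21621, 21577 and 23650.0 with siRNA to RPL9, RPL17 and RPL27, and 33988 in HT29 NC against 15820.1, 18508 and 19996. FAU, which encodes RPS30 fused to a ubiquitin-like protein, read 2459 RPKM in HCT116 NC and 2485, 3367 and 3298 with siRNA to RPL9, RPL17 and RPL27, and 6211 in HT29 NC against 2393, 2897 and 2914. In these 3 genes the RPL9 siRNA library read lowest of the RPL siRNA libraries in HT29, and in HCT116 it did so for RPSA and FAU.

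RPS21, a small protein at the platform, read 6053 RPKM in HCT116 NC and 7269, 5569.6 and 7751 with siRNA to RPL9, RPL17 and RPL27, and 20529 in HT29 NC against 9426, 5869 and 7695. The RPL17 siRNA library was the lowest RPL siRNA library in both lines. RPS24, a further Diamond-Blackfan anaemia gene, read 18428 RPKM in HCT116 NC and 18599.5, 17395 and 19656 with siRNA to RPL9, RPL17 and RPL27, and 38788 in HT29 NC against 19590.2, 17475 and 18789. RPS14, a platform protein whose loss of 1 copy marks the 5q- syndrome, read 4808 RPKM in HCT116 NC and 5914, 5718 and 5378 with siRNA to RPL9, RPL17 and RPL27, and 12099 in HT29 NC against 5733, 5503 and 5329. The level of RPS24 in HCT116 NC lay within those of the RPL siRNA libraries, and that of RPS14 below them.

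RPS13, which takes part in a bridge to the large subunit, read 6926 RPKM in HCT116 NC and 8419, 8411 and 8555 with siRNA to RPL9, RPL17 and RPL27, and 15431 in HT29 NC against 9791, 8459 and 8180.1. RPS27, a zinc finger protein, read 12204 RPKM in HCT116 NC and 14992, 14709 and 15139.8 with siRNA to RPL9, RPL17 and RPL27, and 26345 in HT29 NC against 17023, 15020.5 and 15755. RPS15A read 9251 RPKM in HCT116 NC and 9924, 11344 and 11259 with siRNA to RPL9, RPL17 and RPL27, and 20921 in HT29 NC against 10829, 10600.5 and 10983. For these 3 genes HCT116 NC was below every other library of the series.

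RPS3A, a protein of the platform, read 7371 RPKM in HCT116 NC and 7557, 7247 and 7599 with siRNA to RPL9, RPL17 and RPL27, and 14874 in HT29 NC against 8207, 6988 and 7198. RPS23, which lies at the decoding centre, read 7159.7 RPKM in HCT116 NC and 6968, 7070.3 and 7349 with siRNA to RPL9, RPL17 and RPL27, and 12461 in HT29 NC against 8138, 7523 and 7689. In both genes the HCT116 NC library lay within the range of the RPL siRNA libraries and the HT29 NC library far above all others. Over the whole set the HT29 NC library was the highest of all 8 for 28 of 28 genes, as it was for 23.2% of tested genes, and the HCT116 NC library was the lowest of all 8 for 15, against 13.6%.

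The mean of the 3 RPL siRNAs was tested against NC over both lines. No small subunit gene passed: limma called 0 of 28 at an adjusted p under 0.05 and 1 at an unadjusted p under 0.05, while over 14281 genes the adjusted threshold called 0.168% and the unadjusted 24.6%. The median of the 28 genes was -0.39 against 0.10 over all tested genes, and their values ran from -0.84 to -0.0064. The lowest were RPS9 at -0.84 (SE 0.28; limma adjusted p = 0.16), RPS29 at -0.65 (SE 0.41; adjusted p = 0.35) and RPS21 at -0.64 (SE 0.36; adjusted p = 0.30), and the highest RPS4X at -0.0064 (SE 0.20; adjusted p = 0.98), RPS26 at -0.081 (SE 0.30; adjusted p = 0.88) and RPS6 at -0.095 (SE 0.17; adjusted p = 0.75). All 28 values lay below 0, but 7 turned positive after quantile normalization (RPS4X at 0.25, RPS6 at 0.18, RPSA, RPS13, RPS27, RPS12 and RPS26 at 0.054 to 0.00092) and 4 after removal of the trend with transcript length (RPS26 at 0.15, RPS4X at 0.13, RPS6 at 0.072 and RPS12 at 0.013). The count rests on the control libraries. Without the HCT116 NC library 28 of 28 were called lower (17.8% of all tested genes), with a median of -1.002; that fit rests on the HT29 NC library alone, and the RPL siRNA libraries supply its spread.

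Without the HT29 NC library the contrast equals the HCT116 difference, and limma called 13 of 28 higher and 0 lower, against 6.93% and 6.0% of all tested genes. Those 13 were RPS26 at 0.58 (SE 0.06; limma adjusted p = 0.0089), RPS12 at 0.57 (0.09; 0.019), RPS28 at 0.47 (0.06; 0.013), RPS19 at 0.44 (0.05; 0.011), RPS10 at 0.42 (0.07; 0.022), RPS4X at 0.41 (0.04; 0.0083) and, with adjusted p values of 0.028 to 0.049, RPS15, FAU, RPS27, RPS6, RPS14, RPS16 and RPSA at 0.34 to 0.18. RPS9 stood at -0.22 (SE 0.06; adjusted p = 0.065). In this fit the single NC library is assumed to vary like the RPL siRNA libraries.

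Whether the response differed between the lines was tested with an interaction term of line and RPL siRNA, again with 1 NC library per line, so that its p-values hold no spread between control cultures. All 28 genes were called with a higher effect in HCT116, against 6.11% of all tested genes, with a median of 1.20 (range 0.67 to 1.90), while the median over all tested genes was -0.19. The widest gaps were in RPS29 (1.90; SE 0.18; limma adjusted p = 7.4e-04), RPS28 (1.78; SE 0.13; 4.5e-04) and RPS19 (1.70; SE 0.12; 4.2e-04), and the narrowest in RPS6 (0.67; SE 0.15; 0.018) and RPS23 (0.67; SE 0.12; 0.0069). Removing each library's trend with transcript length left 14 of 28 called (3.23% of all tested genes), with a median of 0.72, and quantile normalization left 13 (9.45%), with a median of 0.44. RPS4X, RPS6 and RPS23 turned sign under the latter, to -0.084, -0.036 and -0.030. Under each of these alternatives RPS9, RPS10, RPS12, RPS14, RPS15, RPS16, RPS19, RPS26, RPS28 and RPS29 were still called.

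**Figure D2:**
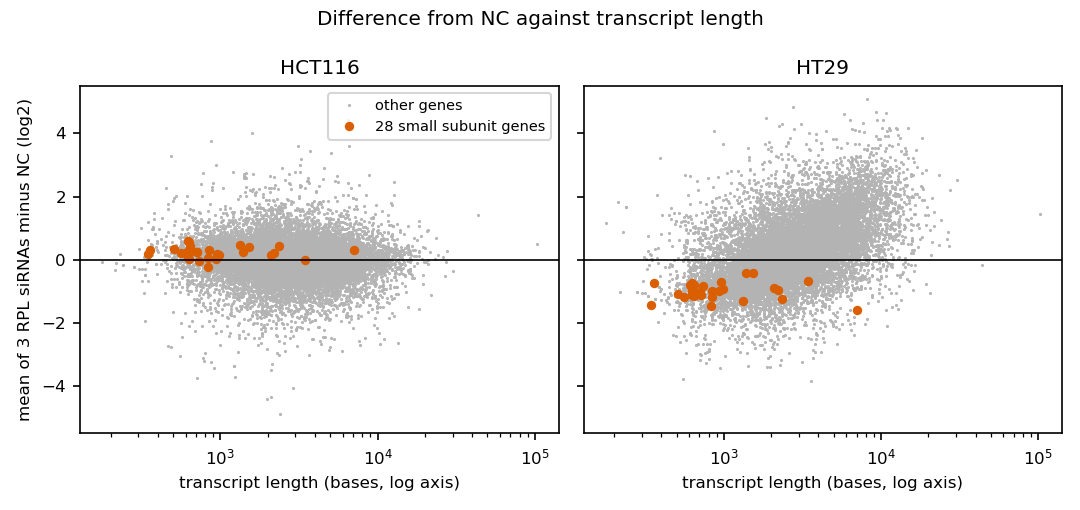
Each point is a gene, plotted by matched transcript length (log axis) and by the mean of the 3 RPL siRNA libraries minus NC (log2), in HCT116 on the left and HT29 on the right; orange points are the 28 small subunit genes. In HT29 the cloud of all genes has a median of -0.54 under 500 bases and -0.69 at 500 to 1000 bases. From there it rises with length to 1.47 over 8000 bases. Most small subunit genes lie at the short end. In HCT116 the cloud changes much less, from a median of 0.16 under 500 bases and 0.088 at 500 to 1000 bases to -0.024 at 4000 to 8000 bases.

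Over all tested genes the difference from NC in HT29 thus moved with transcript length. The part of length in the difference of small subunit messages was not tested. After the trend was removed the HT29 NC library still lay above all 3 RPL siRNA libraries for 28 of 28 genes (40.8% of all tested genes), with a median of -0.57 against -0.050 over all tested genes. In HCT116 the median was 0.19, against 0.022 over all tested genes, with NC below all 3 libraries for 20 genes (34.8% of all tested genes). The matched lengths of RPS29 (7062 bases), RPS23 (3437), RPS19 (2359), RPS15A (2203) and RPS3 (2097) belong to long annotated transcripts. With the trend removed on these lengths RPS29 moved from -1.60 to -2.75 in HT29. All of these genes were still called in the test between lines, so their calls depend on the matched length. A second set, chosen after seeing the data, took the median coding transcript of each symbol, at most 1526 bases for the 28 genes. With it the HT29 median was -0.92, with NC above all 3 libraries for 28 of 28 (41.9% of all tested genes). HCT116 NC lay below for 20 (34.9%), and 27 of 28 genes were called in the test between lines (6.0%).

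The 3 RPL siRNAs were compared with each other on the 6 RPL siRNA libraries, which leaves both NC libraries out. Small subunit messages differed little. The range over the 6 libraries had a median of 0.25 (log2, at most 0.76) for the 28 genes, against 0.77 over all tested genes. The latter include genes of low level. Limma called 0 of 28 genes in each of the 3 comparisons, against 0.816% of 14217 tested genes with RPL9 siRNA, 0.464% with RPL17 siRNA and 1.39% with RPL27 siRNA. At an unadjusted p under 0.05 there were 5, 6 and 4 of 28, against 20.6%, 18.2% and 18.7% of all tested genes. The medians of the 28 genes were 0.020 under RPL9, -0.039 under RPL17 and 0.031 under RPL27 siRNA, each against the mean of the other two.

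The genes at the edges were few. Under RPL9 siRNA FAU stood at -0.35 (SE 0.05; limma adjusted p = 0.053), RPSA at -0.18 (SE 0.03; adjusted p = 0.067) and RPS2 at -0.17 (SE 0.05; adjusted p = 0.15), and at the other end RPS21 stood at 0.32 (SE 0.08; adjusted p = 0.11), RPS25 at 0.12 and RPS3A at 0.12. Under RPL17 siRNA RPS21 stood at -0.48 (SE 0.08; limma adjusted p = 0.066), RPS6 at -0.16 (SE 0.04; adjusted p = 0.13) and RPS24 at -0.14 (SE 0.04; adjusted p = 0.15), with FAU at 0.18, RPS7 at 0.13 and RPS18 at 0.053 at the other end. Under RPL27 siRNA RPSA stood at 0.19 (SE 0.03; limma adjusted p = 0.057), RPS2 at 0.18 (SE 0.05; adjusted p = 0.16) and FAU at 0.17 (SE 0.05; adjusted p = 0.18), and the lowest were RPS14 at -0.094, RPS13 at -0.065 and RPS18 at -0.059. RPS21 and FAU had the largest differences, with opposite signs under RPL9 and RPL17 siRNA. Each contrast sets an siRNA against the mean of the others, so the values of a gene in these contrasts offset each other. The opposite signs are therefore not a separate result. Neither RPS21 nor FAU passed the threshold over all genes. A few crossed it under other settings. FAU was called under RPL9 siRNA with genes averaging at least 5 RPKM (limma adjusted p = 0.030), with a pseudocount of 5 (0.049) and after quantile normalization (0.038; also RPSA, 0.049). RPS21 was called under RPL17 siRNA with the 5 RPKM filter (limma adjusted p = 0.035), after quantile normalization (0.021; also RPS7, 0.047) and without the RPL9 siRNA library of HCT116 (0.013) or of HT29 (0.038). RPSA was called under RPL27 siRNA with the 5 RPKM filter (limma adjusted p = 0.045) and without the RPL9 siRNA library of HCT116 (0.044) or of HT29 (0.045); in each of these last 2 fits 1 further gene was called.

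**Figure D3:**
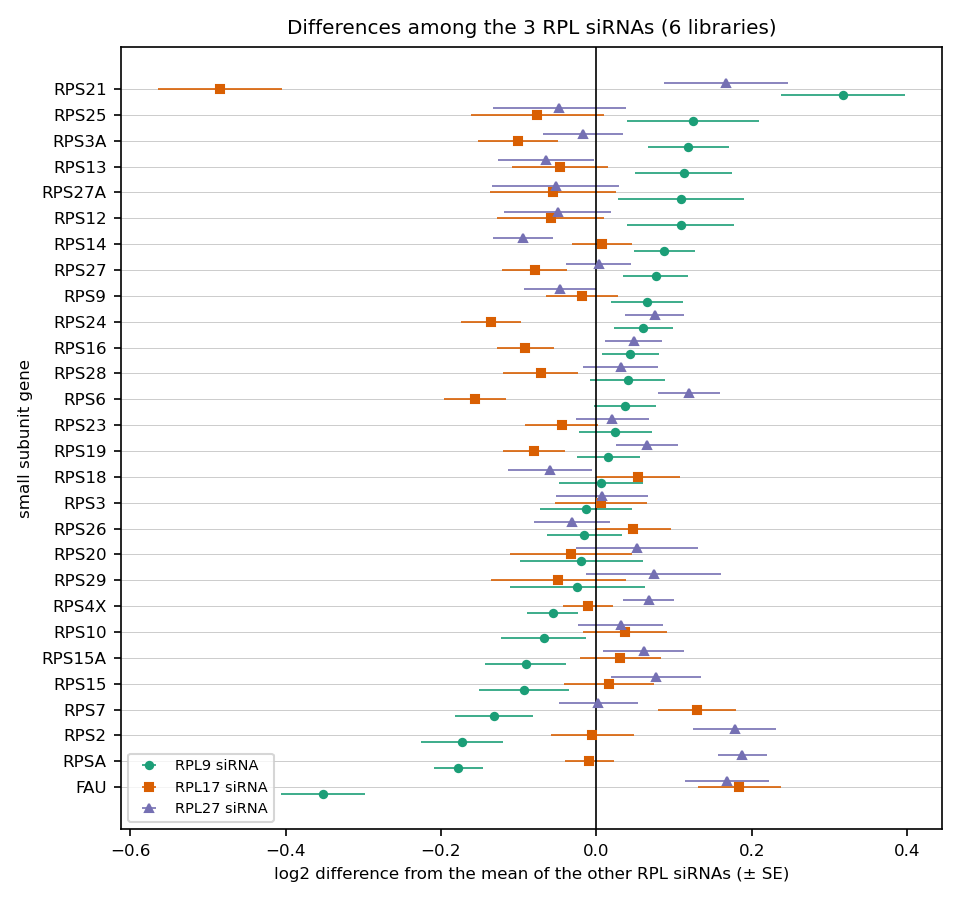
Each row is a small subunit gene, and each point its log2 difference under 1 RPL siRNA from the mean of the other two, over HCT116 and HT29 (6 libraries), with the standard error from limma as the bar. Most points lie within 0.2 of 0, and RPS21 (-0.48 under RPL17 siRNA) and FAU (-0.35 under RPL9 siRNA) lie farthest out.

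Between the lines the small subunit messages were close under the RPL siRNAs. The median of HCT116 minus HT29 over the 28 genes was 0.018 (log2), against 0.038 over all tested genes, and limma called 6 of 28 higher in HCT116 and 1 lower, where 11.4% and 11.8% of all tested genes were called. Higher in HCT116 were RPS28 at 0.32 (SE 0.05; limma adjusted p = 0.0059), RPS15 at 0.31 (SE 0.05; 0.013), RPS2 at 0.30 (SE 0.05; 0.0098), RPS29 at 0.30 (SE 0.08; 0.048), RPSA at 0.29 (SE 0.03; 0.0022) and RPS26 at 0.24 (SE 0.05; 0.015). RPS28 read 4973 to 5171 RPKM in the 3 RPL siRNA libraries of HCT116 and 3821 to 4229 in those of HT29, so the lines did not overlap. RPSA read 13944 to 16627 against 11454 to 13463. RPS7 was lower in HCT116 at -0.18 (SE 0.05; limma adjusted p = 0.042), at 13376 to 16314 RPKM against 16523 to 17236. These differences are small and their calls depend on the fit. With no filter on low genes or with limma without its trend 0 of 28 were called, and without the siRNA term 2. With 1 library left out 3 to 11 were called. The count was 3 without either RPL17 siRNA library, 4 without either RPL27 siRNA library and 11 without the RPL9 siRNA library of HT29. With quantile normalization 6 were called higher and 4 lower, and with each library centred on its median 7 and 0. The shares of all tested genes called under these settings are not given, so a change in the count may be shared by other genes.

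**Figure D4:**
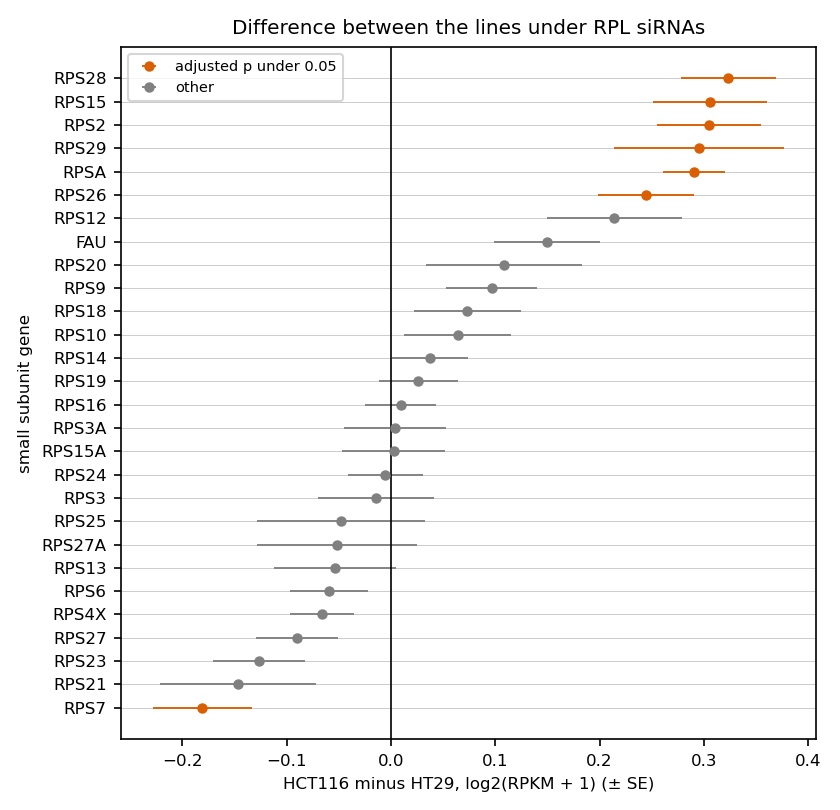
Each row is a small subunit gene and each point HCT116 minus HT29 over the 3 RPL siRNAs (log2 of RPKM + 1), with the standard error from limma as the bar; orange points passed an adjusted p of 0.05. The 6 orange points on the right lie between 0.24 and 0.32, and RPS7 lies at -0.18.

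The factors that assemble the small subunit were taken from a list of 46 genes, all measured. In HCT116 against NC their median was 0.46, beside 0.24 for the 28 structural genes, and NC lay below all 3 RPL siRNA libraries for 40 of 46 (33.0% of all tested genes). In HT29 their median was 0.19, the same as that of all tested genes, with NC below all 3 for 24 and above for 15 (46.6% and 32.7% of all tested genes). With the length trend removed that median was -0.071, against -0.050 over all tested genes, and NC lay above all 3 for 21 (40.8% of all tested genes). It lay below all 3 for 14, a count without a share over all tested genes to set beside it. The difference between the lists was not tested. In the mean against NC limma called 0 of 46 (0.168% of all tested genes) and 23 at an unadjusted p under 0.05 (24.6% of all tested genes). NOL6, a protein of the early nucleolar particle, was highest at 1.21 (SE 0.18, limma adjusted p = 0.067). FBL, the methyltransferase of box C/D particles, was lowest at -0.64 (adjusted p = 0.16). Between the lines under RPL siRNAs 29 of 46 were called higher in HCT116 and 0 lower, where 11.4% of all tested genes were called higher, with KRR1 highest at 0.77 (limma adjusted p = 8.0e-04). The test of the response between lines rests on 1 NC library per line. HT29 NC lay above its RPL siRNA libraries for each gene called higher there, as in FBL (5398 RPKM against 2425 to 2686). It lay below them for each gene called lower, as in WDR36 (268 against 796 to 853). The part of transcript length in these calls was not tested. In the test of the response between lines 6 were called higher in HCT116, namely TBL3, NOC4L, NGDN, RRP7A, FBL and NHP2L1 at 0.81 to 1.11, and 3 lower (6.11% and 16.8% of all tested genes), WDR36 at -1.54, UTP20 at -1.16 and HEATR1 at -0.99 (limma adjusted p of 0.0021 to 0.027 over the 9).

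AATF, a factor of a complex for early small subunit processing that is also known as Che-1, set the RPL17 siRNA apart. It read 636 RPKM under RPL17 siRNA in HCT116 against 1306 and 1299 under RPL9 and RPL27 siRNA, and 593 in HT29 against 1343 and 1313, with 907 and 1229 in the NC libraries of HCT116 and HT29. Against the other two siRNAs it was lower under RPL17 siRNA, at -1.10 (SE 0.06; limma adjusted p = 0.0083) and so stood at 0.56 under RPL9 (adjusted p = 0.031) and 0.53 under RPL27 siRNA (adjusted p = 0.027), contrasts that share the same 6 libraries. UTP6, another early factor, was lower under RPL27 siRNA, at -0.50 (SE 0.07; limma adjusted p = 0.039). No other of the 46 factors was called in these comparisons.

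Factors that act on single small subunit proteins were 8 genes. Among them limma called 0 in the mean against NC (0.168% of all tested genes) and 0 in each comparison among the RPL siRNAs (0.464% to 1.39%). OGFOD1, which hydroxylates RPS23, stood highest against NC at 0.82 (adjusted p = 0.077), and PDCD2L at -0.35 was lowest. Between the lines under RPL siRNAs 3 were called higher in HCT116 and 0 lower, where 11.4% and 11.8% of all tested genes were. The 3 were OGFOD1 at 0.42 (limma adjusted p = 0.012), PDCD2, a chaperone of RPS2, at 0.35 (0.033) and the S6 kinase gene RPS6KB1 at 0.35 (0.0085). RPS6KB1 read 1517 RPKM in HCT116 NC and 1349 to 1398 under the RPL siRNAs, and 611 in HT29 NC against 1052 to 1107. The test of the response between lines rests on 1 NC library per line and called 16.8% of all tested genes lower. The part of transcript length in it was not tested for these genes. RPS6KB1 also had a lower response in HCT116 than in HT29, by an interaction of -0.97 (SE 0.15; limma adjusted p = 0.0039).

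The large subunit genes had values close to those of the small subunit genes. Over 44 large subunit genes without the 3 targets the median against NC was 0.23 in HCT116 and -0.85 in HT29, beside 0.24 and -1.002 for the small subunit, and NC lay above all 3 RPL siRNA libraries of HT29 for 44 of 44 (32.7% of all tested genes). With the length trend removed these were -0.52 in HT29, beside -0.57 for the small subunit, and 40 of 44 (40.8% of all tested genes). The summed RPKM of the 28 small subunit genes was 0.581 of that of the 44 large subunit genes in HCT116 NC and 0.587 to 0.609 under the RPL siRNAs, and 0.612 in HT29 NC and 0.574 to 0.582 under the RPL siRNAs. The summed RPKM of the 28 genes took 3.92% of all RPKM in HCT116 NC, 4.30% to 4.60% in the HCT116 RPL siRNA libraries, 7.73% in HT29 NC and 4.28% to 4.50% in the HT29 RPL siRNA libraries.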

How the data were processed

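RNA was taken with Trizol and made into TruSeq libraries, per the labels' protocols. The deposited values are RPKM made by the authors, 1 per gene symbol and library; CASAVA 1.8.2, TopHat2 2.0.9 and hg19 are named, without their roles, per the submitters' processing notes. Read totals are not in these tables, so depth is unknown and no counting interval is given. Here, values were taken as log2(RPKM + 1), so fold changes are on that scale. Genes averaging 1 RPKM or more in the libraries fitted were tested, 14281 with 8 libraries and 14217 with 6, and all 28 members passed. limma 3.58.1 (trend, R 4.3.3) was fitted with terms for line and siRNA, leaving 3 residual degrees of freedom with 8 libraries and 2 with 6, or with an interaction of line and RPL siRNA, leaving 4. Tests are two-sided, adjusted over all tested genes (Benjamini-Hochberg, 0.05), and the scripts were tested on simulated data. P-values measure the spread between lines or between siRNAs. Groups came from the sample titles, and the shared line pairs the libraries as a term of the fit. Lengths came from GENCODE v29 (GRCh38) for 18900 genes, 18346 by RefSeq accession, and promoters from RefSeq. The length trend was a spline with 5 degrees of freedom. Members and lists were chosen with earlier results of these data known. Some genes of the other lists are not reported here. All 28 members are named. Large subunit genes are given by counts and medians, and of the assembly and single-protein factors the called genes, or else the highest and lowest, are named, save that of 29 called between lines only the highest is. Alternatives were pseudocounts, filters, scalings, the length trend, limma without trend, terms of the fit and each library left out; a second set of lengths was added after seeing the data.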

Additional observations from a re-analysis of the deposited data

Results flagged for a closer look

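The interaction term of limma called a difference between the lines in the response to the RPL siRNAs for all 28 small subunit genes. All were higher in HCT116, a call made for 6.11% of all tested genes. For head genes the effect in HCT116 minus that in HT29 (log2) was 1.06 for RPS3, 1.58 for RPS10, 1.58 for RPS12, 1.44 for RPS15, 1.41 for RPS16, 1.05 for RPS18, 1.70 for RPS19, 1.21 for RPS20, 1.03 for RPS25, 1.29 for RPS27A, 1.78 for RPS28 and 1.90 for RPS29. For genes of the body and platform it was 0.90 for RPSA, 1.08 for RPS2, 1.02 for RPS3A, 0.83 for RPS4X, 0.67 for RPS6, 0.80 for RPS7, 1.23 for RPS9, 1.10 for RPS13, 1.37 for RPS14, 1.18 for RPS15A, 1.61 for RPS21, 0.67 for RPS23, 1.07 for RPS24, 1.33 for RPS26, 1.02 for RPS27 and 1.49 for FAU. All rest on 1 NC library per line, so the p-values hold no spread between control cultures, and the HT29 NC library reads short transcripts high. After removal of the length trend 14 were called (3.23% of all tested genes), and after quantile normalization 13 (9.45%). With the other lengths, added after seeing the data, every gene but RPS6 (0.55, limma adjusted p = 0.056) was called, against 6.0% of all tested genes.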

How the results depend on the processing

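The comparison of all RPL siRNAs with NC called 0 of 28 genes under every alternative that kept both NC libraries; with each library left out in turn the count ran from 0 to 28 and the median from -1.002 to 0.24, the ends being the fits without an NC library. Of all 28 genes 7 turned sign in it after quantile normalization and 4 with the length trend removed. Among the 6 at the ends of the range, the value turned in RPS4X (0.25 after quantile normalization, 0.13 with the length trend removed and 0.0078 with the other lengths, added after seeing the data), RPS6 (0.18 and 0.072 in the first 2 of these) and RPS26 (0.00092 and 0.15). With a library left out RPS4X ran from -0.42 to 0.41, RPS6 from -0.43 to 0.24, RPS21 from -1.45 to 0.17, RPS26 from -0.75 to 0.58 and RPS29 from -1.60 to 0.30. Against the other RPL siRNAs, 1 gene was called for each siRNA with a 5 RPKM filter, 1 for RPL9 siRNA with a pseudocount of 5, and 2 each for RPL9 and RPL17 siRNA after quantile normalization. With a library left out these counts ran from 0 to 0, 0 to 1 and 0 to 2 for RPL9, RPL17 and RPL27 siRNA, the RPL9 median from -0.048 to 0.10, RPS25 under RPL9 siRNA from -0.064 to 0.31, RPS18 under RPL17 siRNA from -0.012 to 0.12 and RPS13 under RPL27 siRNA from -0.15 to 0.024. HCT116 against HT29 called 0 genes with no filter or without limma's trend and 2 without the siRNA term; its median was -0.030 after quantile normalization and 0.11 with the length trend removed, and with a library left out it ran from -0.0069 to 0.069 and the count from 3 to 11. The interaction called 13 genes after quantile normalization (median 0.44, with RPS4X at -0.084, RPS6 at -0.036 and RPS23 at -0.030) and 14 with the length trend removed (median 0.72); median centring gave a median of 1.64, and with an RPL siRNA library left out the count stayed at 28. In each case the cause was not tested. Most of these counts stand without the share of all tested genes called under the same setting, so they cannot be set against it. The line term pairs the libraries; without this replicate block 0 members were called in the mean against NC and in each comparison among RPL siRNAs, as with it. Of 555 alternatives for 59 named gene values, leaving aside fits without a library, 480 kept direction and side of the threshold, 57 lost the call, 8 gained it and 10 turned sign. NC libraries could not be left out of the interaction. Depth is unknown, so no limit from counting error is given.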
